A study of Mus musculus with 27 samples.

Results

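Basal and injury associated epithelial genes were described here as the 9 symbols Krt5, Krt8, Krt18, Krt19, Trp63, Cldn4, Sfn, Areg and Sprr1a, all of which had a row among the 21742 gene symbols of the linear RNA table. They were taken by symbol, and 7 of the 9 passed the filter on low values. Values are TPM, a share of transcripts scaled for gene length, 1 library per mouse, in 27 BALB/c AnNHsd mice.

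The lung of every mouse was sampled as the left lobe at an age of 87 days, in a protocol of 35 days. Saline mice (n = 5) were not sensitized. CDG_HDM mice (n = 10) received house dust mite extract together with the adjuvant cyclic di-GMP and no further treatment. Dex_CDGHDM mice (n = 6) were sensitized in that way and were treated with dexamethasone, a glucocorticoid, given intraperitoneally at 3 mg/kg on days 11, 18 and 25. AM155 mice (n = 6) received an oligonucleotide antisense to miR-155, carried by TheraSilence lipid nanoparticles and injected intravenously at 2 mg/kg on the days of the dexamethasone doses. Their labels do not say in words that AM155 mice were sensitized, and neither treatment has a vehicle control among these groups. The labels do not say whether mice shared a litter or cage, so p-values measure the spread between these libraries.

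Keratins are the intermediate filament proteins of epithelial cells, and each filament pairs a type I keratin with a type II keratin. Basal cells, the stem cells of the pseudostratified airway, carry Krt5 and the transcription factor Trp63, whereas Krt8, Krt18 and Krt19 belong to simple epithelia such as the airway lining, the alveolar epithelium and the mesothelium. After alveolar injury, type 2 cells on their way to type 1 cells pass through a transitional state known for high Krt8, Krt18, Krt19, Cldn4 and Sfn, and amphiregulin (Areg) is a ligand of the EGF receptor released in tissue repair.

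In sensitized lung the simple keratins and Sfn were lower and no member was higher. Of the tested members, Krt19, Krt8, Krt18 and Sfn fell in CDG_HDM against Saline, Krt19 the most, to 0.572 times its Saline mean. The same 4 genes were below Saline in the AM155 and Dex_CDGHDM groups. Neither dexamethasone nor the antisense oligonucleotide gave a called change in any tested member against CDG_HDM. Of all 17437 genes tested, only 1 and 18 were called in these comparisons. Krt5 and Sprr1a were scarce in the whole lobe.

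Krt8 and Krt18 encode obligate filament partners and lie as neighbours on chromosome 15 of GRCm38, and 3 of the 4 genes that fell have an entry in the RefSeq promoter table (GRCm38.p6). Their windows run from 250 bases before to 50 bases after the RefSeq start. They are shown with that of Cldn4, a gene that did not pass the test. Capitals mark matches, on either strand, to the AP-1 motif TGANTCA, the GC box GGGCGG or the TATA box TATAAA.
Krt8 (chr15:102004293-102004592, minus strand): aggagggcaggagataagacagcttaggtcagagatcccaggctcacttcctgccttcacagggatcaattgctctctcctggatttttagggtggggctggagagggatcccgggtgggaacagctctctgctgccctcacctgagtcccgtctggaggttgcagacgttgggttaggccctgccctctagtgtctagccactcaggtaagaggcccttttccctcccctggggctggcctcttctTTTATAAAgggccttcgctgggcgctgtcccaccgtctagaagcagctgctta
Krt18 (chr15:102027966-102028265, plus strand): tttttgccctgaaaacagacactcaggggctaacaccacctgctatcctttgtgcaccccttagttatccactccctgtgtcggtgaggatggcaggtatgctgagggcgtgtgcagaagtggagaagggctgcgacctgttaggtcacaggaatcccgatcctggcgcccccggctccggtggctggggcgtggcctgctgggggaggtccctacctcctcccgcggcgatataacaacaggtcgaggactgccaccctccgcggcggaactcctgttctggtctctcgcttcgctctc
Sfn (chr4:133602119-133602418, minus strand): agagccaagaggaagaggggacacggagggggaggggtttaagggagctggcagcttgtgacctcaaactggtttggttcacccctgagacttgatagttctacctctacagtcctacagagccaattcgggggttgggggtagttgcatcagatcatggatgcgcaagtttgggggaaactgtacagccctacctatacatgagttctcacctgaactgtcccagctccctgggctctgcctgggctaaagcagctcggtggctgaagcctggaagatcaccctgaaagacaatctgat
Cldn4 (chr5:134946885-134947184, minus strand): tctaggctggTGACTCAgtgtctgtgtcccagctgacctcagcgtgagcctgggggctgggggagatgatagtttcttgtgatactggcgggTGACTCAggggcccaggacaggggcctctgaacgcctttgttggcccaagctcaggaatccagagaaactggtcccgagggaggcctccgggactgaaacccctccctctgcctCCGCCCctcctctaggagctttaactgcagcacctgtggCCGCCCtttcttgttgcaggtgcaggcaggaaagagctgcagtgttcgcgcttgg

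No AP-1 or GC box match was present in the windows of Krt8, Krt18 and Sfn. Krt8 held the letters of the TATA box once on each strand, in 2 matches that overlap each other. Cldn4 held 2 AP-1 matches and 2 GC box matches. Among the other members, Sprr1a held 2 AP-1 matches and 1 TATA box match. Areg, which like Cldn4 did not pass the test, held 2 GC box matches, 1 TATA box match and no AP-1 match. Krt5 held no AP-1 or GC box match. It held 1 match to the p53 family decamer, a part of the element read by p53, p63 and p73. Of 32851 promoters of the same length in the table, 7.81% held an AP-1 match, 35.7% a GC box, 13.6% a TATA box and 8.36% the decamer. Promoters were found for 7 of the 9 members, and Krt19 and Trp63 have none printed. A match describes the letters of the window only, and a contrast between the genes that fell and the others was not tested.

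The level of the members spanned a wide range in TPM. Krt19 had the highest mean over the 27 libraries (97.5 TPM), followed by Krt8 (76.0 TPM) and Krt18 (68.5 TPM), which placed these keratins at the 93.0 to 95.7 percentiles of mean level over all gene symbols of the table. Sfn (11.6 TPM), Cldn4 (5.69 TPM), Areg (4.02 TPM) and Trp63 (2.60 TPM) followed, and Krt5 (0.501 TPM) and Sprr1a (0.244 TPM) were below 1 TPM on average. Neighbours in this order were not always apart within a library. Krt19 exceeded Krt8 in 26 of 27 libraries, Krt8 exceeded Krt18 in 24, and Cldn4 exceeded Areg in 22, whereas Krt18 exceeded Sfn in all 27. Krt5 exceeded Sprr1a in 19 of 27, so the order of the lowest pair was the least regular.

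**Figure D1:**
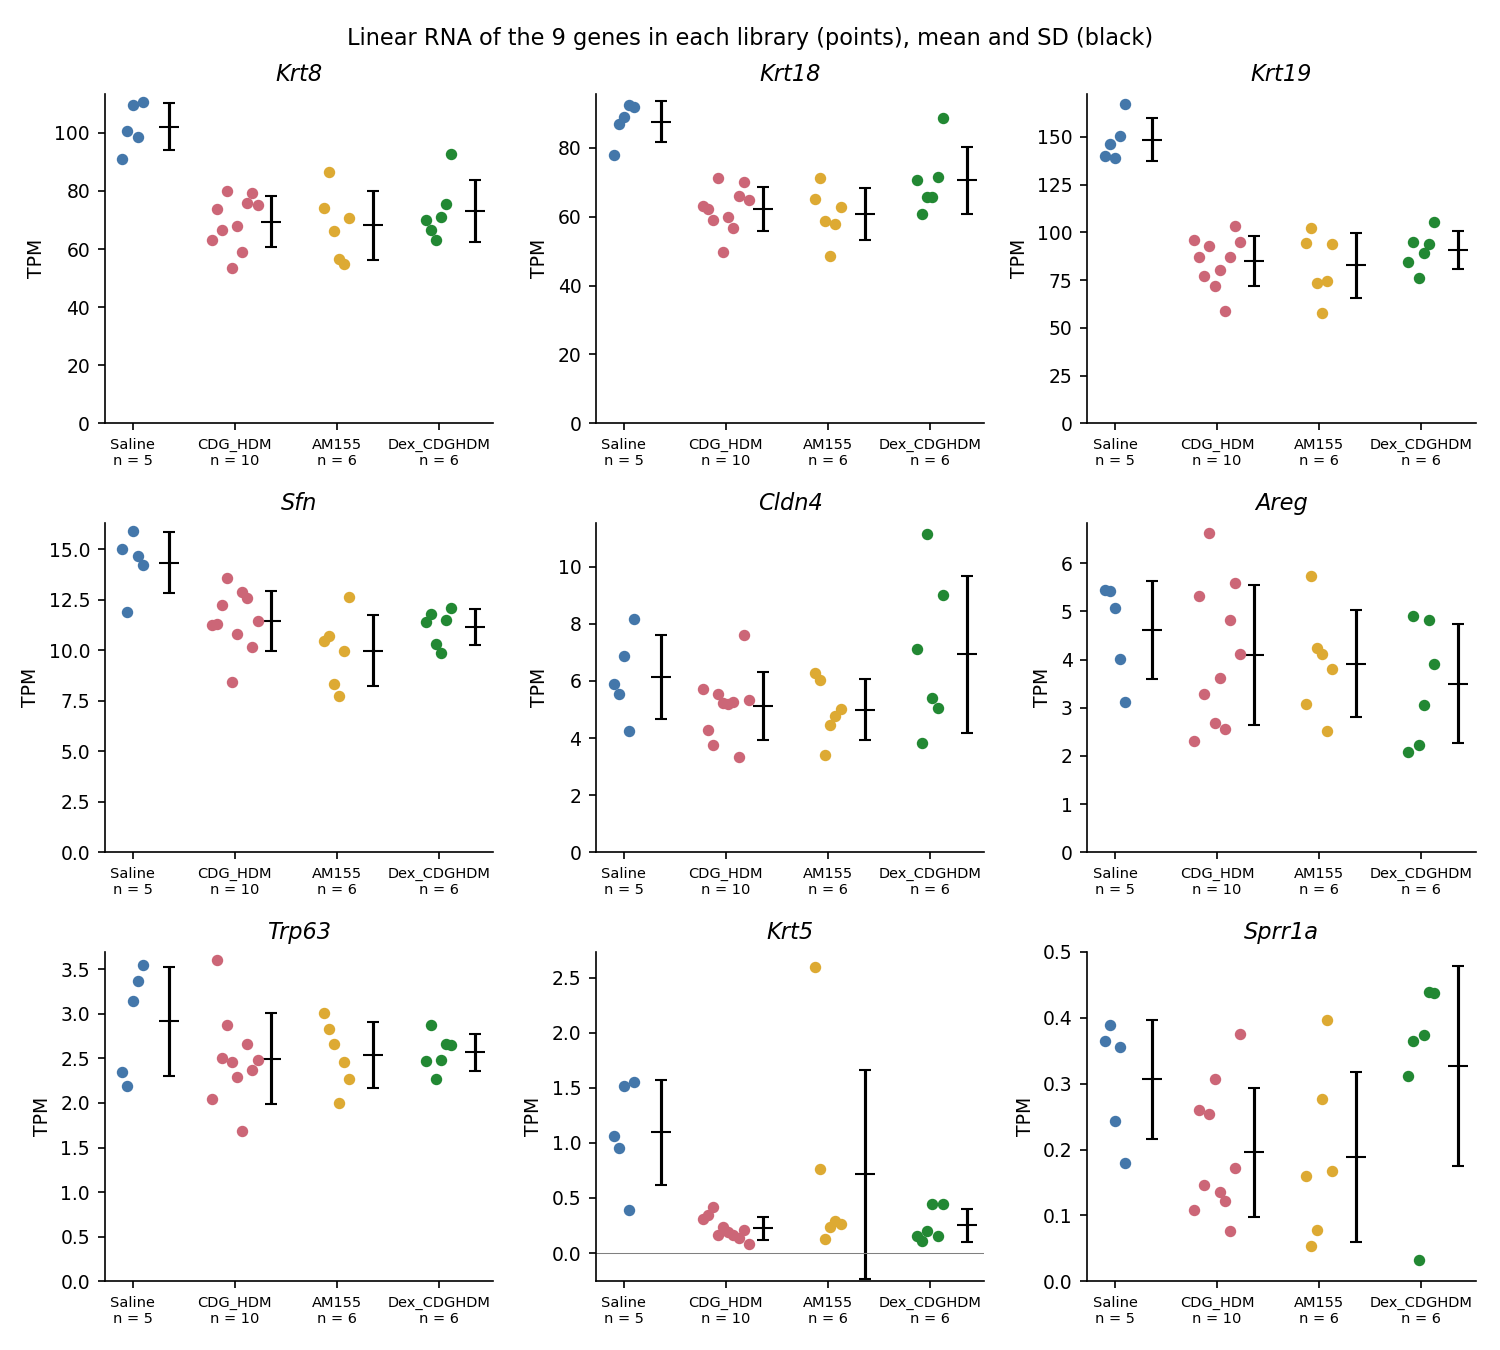
Linear TPM (y axis) of each member in each library (points) by group (x axis), with the group mean and SD in black. All CDG_HDM and AM155 points lie below all Saline points for Krt8, Krt18 and Krt19, whereas the groups overlap for Sfn, Cldn4, Areg, Trp63, Krt5 and Sprr1a.

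The comparison of CDG_HDM with Saline asks what sensitization did to these genes. By limma, with Benjamini-Hochberg adjustment over 17437 genes, 4 of the 7 tested members fell and 0 rose, against 22.8% of all genes called lower and 9.35% called higher. The median log2 change of the tested members was -0.30 beside -0.10 for all genes. Log2 changes are those of TPM + 1, which understates the change of genes at a few TPM. TPM is a share, so in whole lobes fewer epithelial cells, less RNA per epithelial cell and a larger share of other RNA cannot be told apart.

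Krt19 (chromosome 11, 100140810 to 100148665, minus strand), a type I keratin of simple and glandular epithelia, was measured at 140, 146, 139, 150 and 167 TPM in the 5 Saline libraries. In CDG_HDM it ran from 58.8 TPM over a median of 87.2 to 103 TPM. All 10 CDG_HDM libraries were below the lowest Saline library, and the highest of them reached 103 TPM against 139 TPM for that Saline library. The log2 change was -0.81 ± 0.117 (SE; adjusted p = 3.32e-06).

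Krt8 (chromosome 15, 101996698 to 102004482, minus strand), the type II keratin of simple epithelia, stood at 91.0, 101, 109, 98.6 and 111 TPM in Saline. Its CDG_HDM values ran from 53.6 TPM over a median of 70.9 to 79.8 TPM, so the groups did not overlap. The log2 change was -0.56 ± 0.104 (adjusted p = 0.000115). A processed copy, Krt8-ps, is annotated in the mouse genome, and how the authors' counting shared reads between such copies is not given in the sources used here.

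Krt18 (chromosome 15, 102028180 to 102032027, plus strand), the type I partner of Krt8, lies on the opposite strand. Between its start and that of Krt8 are 23697 bases. Its Saline values were 77.8, 86.8, 89.1, 92.5 and 91.8 TPM, and its CDG_HDM values ran from 49.9 TPM over a median of 62.7 to 71.3 TPM. Again no CDG_HDM library reached the Saline range. The log2 change was -0.49 ± 0.0897 (adjusted p = 9.16e-05). Groups without overlap in this direction were found for 3 of the 7 tested members and for 8.92% of all genes tested.

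Sfn (chromosome 4, 133600556 to 133602168, minus strand) encodes 14-3-3 sigma, an epithelial adaptor protein induced by p53. Saline mice had 15.0, 11.9, 15.9, 14.7 and 14.2 TPM, and CDG_HDM mice ran from 8.43 TPM over a median of 11.4 to 13.6 TPM. The groups overlapped through Saline 4 (11.9 TPM), and 6 of 10 CDG_HDM libraries were below all Saline libraries. The log2 change was -0.30 ± 0.0971 (adjusted p = 0.0164). It was -0.27 ± 0.106 (adjusted p = 0.0625) without Saline 5, and -0.15 ± 0.0637 (adjusted p = 0.0591) with the linear table of each library rescaled to a common sum, so the call was lost under either choice.

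Cldn4, Areg and Trp63 were tested and did not pass. Cldn4 (chromosome 5, 134945119 to 134946934), a claudin of tight junctions, had 6.13 ± 1.47 TPM in Saline (mean ± SD, n = 5) and 5.13 ± 1.18 in CDG_HDM (n = 10), with a log2 change of -0.22 (95% interval -0.56 to 0.13, adjusted p = 0.346 by limma). Areg (chromosome 5, 91139599 to 91148432) had 4.61 ± 1.02 and 4.09 ± 1.45 TPM, with a log2 change of -0.17 (-0.55 to 0.21, adjusted p = 0.507). The CDG_HDM mice lay on both sides of Saline for Areg, with 3 of 10 libraries below and 2 above every Saline library. Trp63 (chromosome 16, 25683763 to 25892102), the basal cell transcription factor p63, had 2.92 ± 0.609 and 2.50 ± 0.507 TPM, with a log2 change of -0.16 (-0.36 to 0.04, adjusted p = 0.216). For Trp63 the adjusted p was 0.0477, with a log2 change of -0.23, when Saline 4 and AM155 6 were both left out, a setting chosen after seeing the data.

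Krt5 and Sprr1a failed the filter, which asked for at least 1 TPM in at least 5 libraries. Krt5 (chromosome 15, 101707070 to 101712898), the type II keratin of basal cells, had 1.06, 0.954, 1.52, 0.394 and 1.55 TPM in Saline. It ran from 0.0842 TPM over a median of 0.196 to 0.422 TPM in CDG_HDM. Of the 10 CDG_HDM libraries, 9 were below all Saline libraries, and CDG_HDM 8 was above Saline 8. With no filter, its log2 change was -0.75 ± 0.178 (adjusted p = 0.00216). Sprr1a (chromosome 3, 92483952 to 92485895), a precursor of the cornified envelope, ran from 0.180 to 0.388 TPM in Saline and from 0.0762 to 0.375 TPM in CDG_HDM. It reached 1 TPM in 0 of the 27 libraries, and with no filter its log2 change was -0.13 ± 0.0721 (adjusted p = 0.194).

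How the TPM scale moved with the groups bears on every value above. The linear values of a library summed to between 806446 and 858506 TPM in Saline and between 542264 and 798457 TPM in the other groups, and the share outside both deposited tables was 10.1% ± 0.705 in Saline and 20.5% ± 4.94 in CDG_HDM. Rescaling to a common sum moved the median log2 change of all genes from -0.10 to 0.04 in this comparison, and the higher share of the called genes from 29.1% to 62.8%. Relative to that median, Krt19 changed by -0.71 as deposited and by -0.69 after rescaling, Krt8 by -0.46 and -0.44, Krt18 by -0.39 and -0.37, and Sfn by -0.21 and -0.19. Rescaling applies a single factor to all genes of a library, so these differences could hardly move, and their agreement is no test of scale. After rescaling the changes themselves were -0.65 for Krt19, -0.39 for Krt8, -0.33 for Krt18 and -0.15 for Sfn. AM155 6, the library with the lowest linear sum, also had the lowest Krt19, Krt18 and Sfn of all 27.

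Within each library the keratins did not fall by the same amount. The ratios described here were chosen after the values were seen, and were tested by 21 exact two-sided permutation tests over libraries. The log2 ratio of Krt19 to Krt18 was 0.76 ± 0.0959 in Saline (SD, n = 5) and 0.44 ± 0.158 in CDG_HDM (n = 10), lower in 10 of 10 libraries than in any Saline library (exact permutation p = 0.000666, adjusted 0.0035). The ratio of Krt8 to Krt18, the filament partners, was 0.22 ± 0.0792 and 0.15 ± 0.0753 (exact permutation p = 0.122, adjusted 0.256). That last difference was -0.10, with an adjusted p of 0.042 by the exact permutation test, without Saline 8. Krt19 to Krt8 fell by 0.26 (exact permutation p = 0.0107, adjusted 0.0448). Its adjusted p was above 0.05 when any 1 of Saline 2, 4, 8 or 10 or of CDG_HDM 4, 5, 8, 9, 10, 13 or 14 was left out.

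Set against the mean of 14 general epithelium genes of the same library, the 3 simple keratins were still lower. The log2 ratio fell by 0.64 for Krt19, by 0.38 for Krt8 and by 0.31 for Krt18, each with an exact permutation p of 0.000666 (adjusted 0.0035) and with 10 of 10 CDG_HDM libraries below every Saline library. For Sfn it fell by 0.14 (exact permutation p = 0.0959, adjusted 0.224). These ratios do not depend on how a library is scaled. A change in the mix of cells, mesothelium included, can also move them, and this was not tested.

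**Figure D2:**
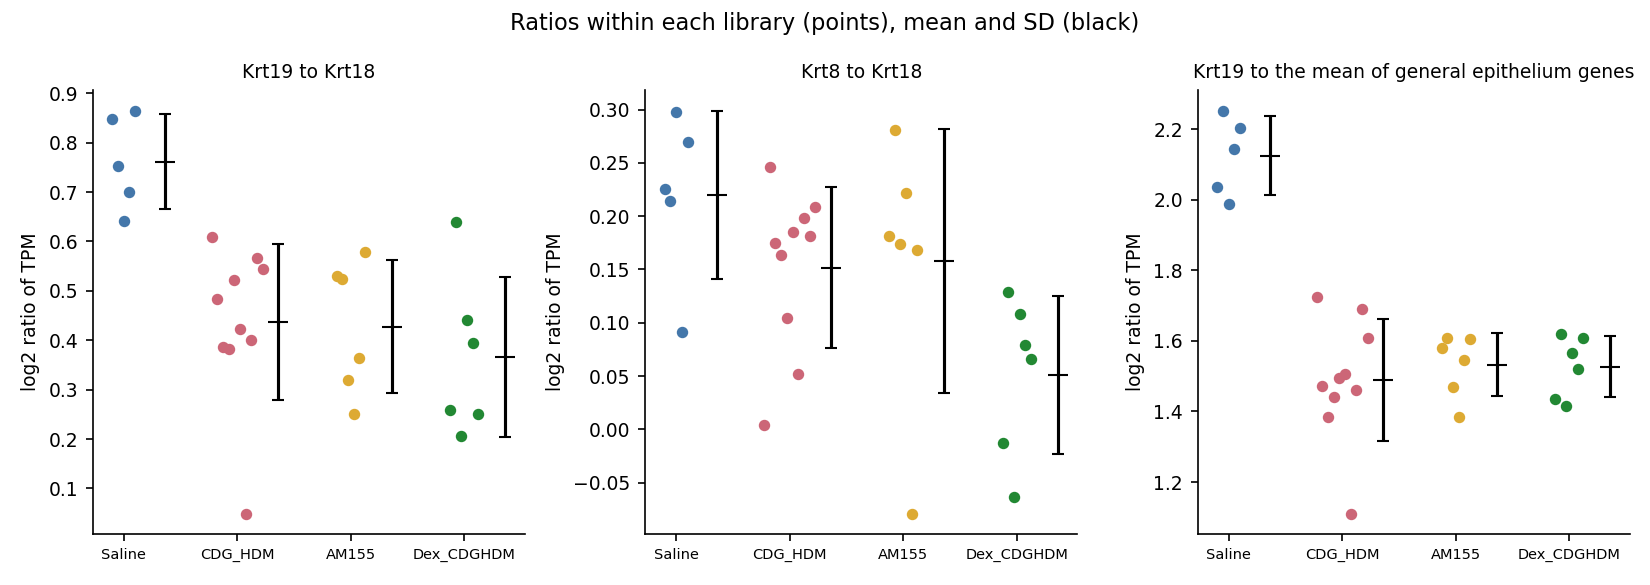
Log2 ratio of TPM within each library (y axis; points) by group (x axis), with mean and SD in black, for Krt19 to Krt18, Krt8 to Krt18 and Krt19 to the mean of 14 general epithelium genes. In the left and right panels all 10 CDG_HDM libraries lie below the Saline libraries, and in the middle panel the groups overlap.

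Dexamethasone was compared with CDG_HDM to ask whether it moved these genes in sensitized lung. Of the 7 tested members 0 passed, and 0.00573% of all genes (1 of 17437) did. The Dex_CDGHDM medians were 70.4 TPM for Krt8, 68.2 for Krt18 and 91.7 for Krt19, beside 70.9, 62.7 and 87.2 TPM in CDG_HDM. The log2 change was 0.07 for Krt8 (95% interval -0.13 to 0.27), 0.17 for Krt18 (-0.00056 to 0.34) and 0.10 for Krt19 (-0.12 to 0.33), each with an adjusted p of 1. The upper bounds of these intervals were smaller than the point estimates of the falls in the first comparison, which shares the CDG_HDM libraries. Those falls have their own error. For Krt18 the 95% interval of the fall, -0.67 to -0.31, overlapped in size with the bound of 0.34.

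Cldn4 had the largest difference of the tested members under dexamethasone. Its 6 Dex_CDGHDM libraries ran from 3.83 TPM over a median of 6.25 to 11.2 TPM, and 2 of them, Dex_CDGHDM 3 and 6, exceeded every CDG_HDM library. The log2 change was 0.32 (95% interval -0.0021 to 0.65, adjusted p = 1 by limma). Sfn differed by -0.03 (-0.22 to 0.16), Areg by -0.17 (-0.53 to 0.19) and Trp63 by 0.04 (-0.15 to 0.23). Of the ratios within a library, Krt8 to Krt18 was 0.10 lower (difference -0.10, exact permutation p = 0.027, adjusted 0.0839) and Krt18 to the general epithelium genes 0.11 higher (exact permutation p = 0.028, adjusted 0.0839) in Dex_CDGHDM, and neither passed.

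The antisense oligonucleotide against miR-155 was set against the same CDG_HDM libraries, so this comparison and the last share their controls. Of the 7 tested members 0 passed, beside 0.103% of all genes (18 of 17437). The AM155 medians were 68.4 TPM for Krt8, 60.8 for Krt18 and 84.1 for Krt19. Log2 changes were -0.03 for Krt8 (95% interval -0.23 to 0.17), -0.04 for Krt18 (-0.21 to 0.13) and -0.05 for Krt19 (-0.27 to 0.18), with adjusted p from 0.868 to 0.907. Their sign turned positive under each of the 3 other scalings, at up to 0.084. Sfn had the largest difference of the tested members, from 7.76 TPM over a median of 10.2 to 12.7 TPM in AM155, with a log2 change of -0.19 (-0.38 to -0.0022, adjusted p = 0.684). Cldn4 differed by -0.03 (-0.35 to 0.30), Areg by -0.03 (-0.39 to 0.33) and Trp63 by 0.02 (-0.17 to 0.21). Krt5, read with no filter on low values, differed by 0.35 ± 0.167 (adjusted p = 0.696 by limma). Without AM155 2, the library with the highest Krt5, left out after the data were seen, it differed by 0.11 ± 0.111 (adjusted p = 0.649).

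Dex_CDGHDM minus AM155 likewise gave 0 called members, beside 0.0803% of all genes (14 of 17437), with log2 differences from -0.14 for Areg to 0.35 for Cldn4 (95% interval -0.013 to 0.72). The interval for Krt18 was 0.018 to 0.40 around 0.21, with an adjusted p of 0.63. At an unadjusted p under 0.05 by limma, 0 of the 7 members passed in Dex_CDGHDM minus CDG_HDM, 1 in AM155 minus CDG_HDM (Sfn, p = 0.0475) and 1 in Dex_CDGHDM minus AM155 (Krt18, p = 0.0334).

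**Figure D3:**
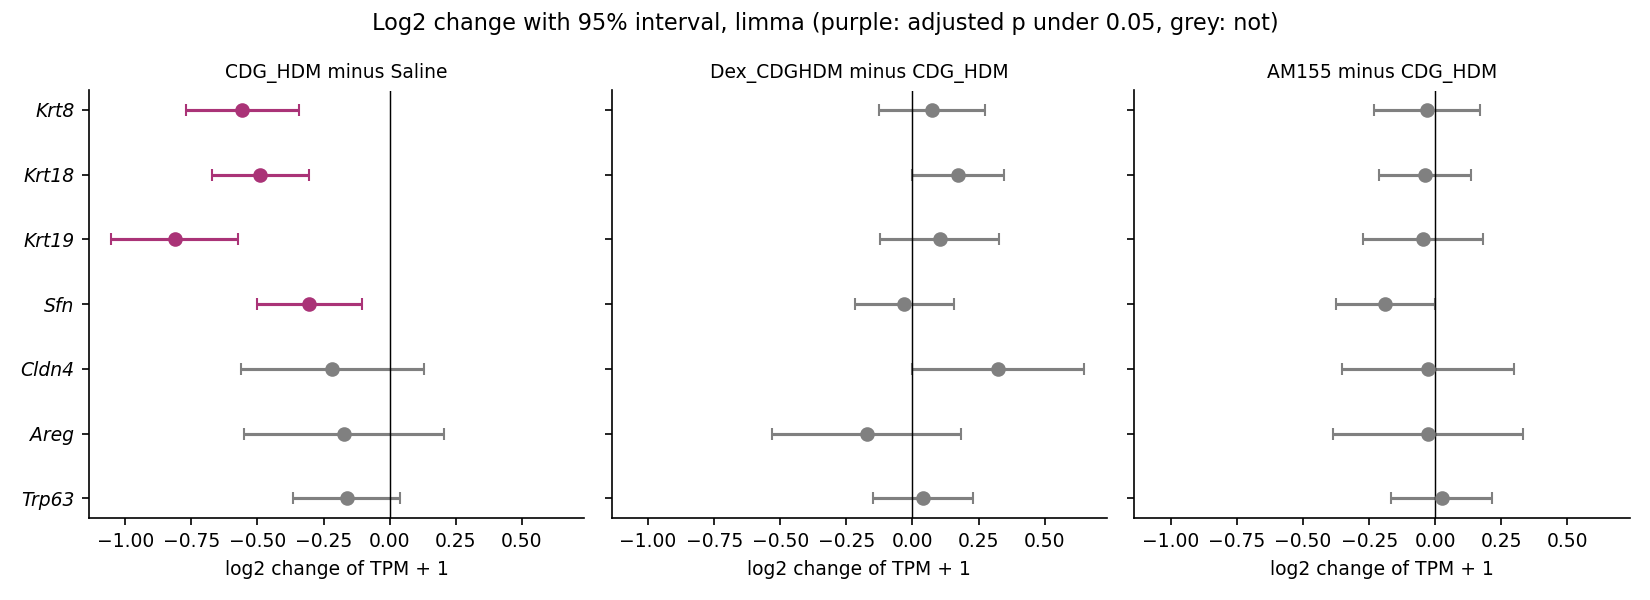
Log2 change of TPM + 1 (x axis) of the 7 tested members (y axis) with 95% intervals from limma. The panels show CDG_HDM minus Saline on the left, then dexamethasone and the antisense oligonucleotide, each minus CDG_HDM. Krt8, Krt18, Krt19 and Sfn (purple) pass an adjusted p of 0.05 in the left panel, at -0.56, -0.49, -0.81 and -0.30, and no member passes in the other panels.

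The treated groups were also compared with Saline, whose 5 libraries these comparisons share with the first. In AM155 minus Saline 4 of 7 members fell, beside 32.7% of all genes called lower. Log2 changes were -0.86 ± 0.130 for Krt19 (adjusted p = 8.32e-06), -0.59 ± 0.115 for Krt8 (adjusted p = 0.000207), -0.53 ± 0.0991 for Krt18 (adjusted p = 0.000133) and -0.49 ± 0.107 for Sfn (adjusted p = 0.000659). The 6 AM155 libraries were below every Saline library for Krt8, Krt18 and Krt19, an arrangement found in 12.7% of all genes. For Krt5, the AM155 libraries lay on both sides of Saline, at 2.60 TPM in AM155 2, 0.763 TPM in AM155 3 and from 0.127 to 0.294 TPM in the other 4.

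In Dex_CDGHDM minus Saline 4 of 7 members fell, beside 17.5% of all genes called lower. Log2 changes were -0.71 ± 0.130 for Krt19 (adjusted p = 0.000137), -0.48 ± 0.115 for Krt8 (adjusted p = 0.00223), -0.32 ± 0.0991 for Krt18 (adjusted p = 0.018) and -0.33 ± 0.107 for Sfn (adjusted p = 0.0216). Only Krt19 had all 6 libraries below Saline, as 12.0% of all genes did. Krt5, read with no filter on low values, changed by -0.72 ± 0.196 (adjusted p = 0.00905 by limma). Dex_CDGHDM 6, with 92.7 TPM of Krt8 and 88.6 TPM of Krt18, reached into the Saline range, while the other 5 libraries were below it. With the common sum, Krt18 (log2 change -0.11, adjusted p = 0.17) and Sfn (-0.14, adjusted p = 0.122) no longer passed, and Sfn did not pass without Saline 2 (adjusted p = 0.0521), Saline 5 (0.0692) or Dex_CDGHDM 4 (0.0546).

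The members were then read across libraries within groups, as deviations of log2(TPM + 1) from the group mean, over 36 pairs of members and 27 libraries, with 100000 permutations within groups. Krt8 and Krt18, the filament partners, moved together most closely (Pearson r = 0.895, Spearman rho = 0.894, permutation p = 1e-05 for each, the smallest these permutations can give, adjusted 0.00036), and r was 0.854 without the 2 libraries farthest from the median of Krt8. Krt8 with Krt19 had r = 0.775 (rho = 0.782, permutation p = 3e-05 and 4e-05, adjusted 0.00036 and 0.00048; 0.736 without the 2 farthest), and Krt18 with Krt19 had r = 0.77 (rho = 0.794, permutation p = 3e-05 for each, adjusted 0.00036 and 0.00048; 0.776 without the 2 farthest). A library's scale is shared by all its genes and enters these values.

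After rescaling to a common sum, r was 0.818 for Krt8 with Krt18 (adjusted permutation p = 0.00036), 0.573 for Krt8 with Krt19 (0.0383) and 0.473 for Krt18 with Krt19 (0.107). Areg with Krt8 had r = 0.575 (rho = 0.562, permutation p = 0.00342 and 0.00463, adjusted 0.0308 and 0.0417; 0.535 without the 2 farthest) and r = 0.566 after rescaling (adjusted 0.062). Trp63 with Krt8 had r = 0.504 (rho = 0.519, permutation p = 0.00669 and 0.00714, adjusted 0.0482 and 0.0514; 0.527 without the 2 farthest) and r = 0.396 after rescaling (adjusted 0.214). Of the 36 pairs, 5 passed by Pearson's r and 4 by Spearman's rho, with 2 left by Pearson's r under the common sum, so only the pairing of Krt8 with Krt18 and with Krt19 was kept there.

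**Figure D4:**
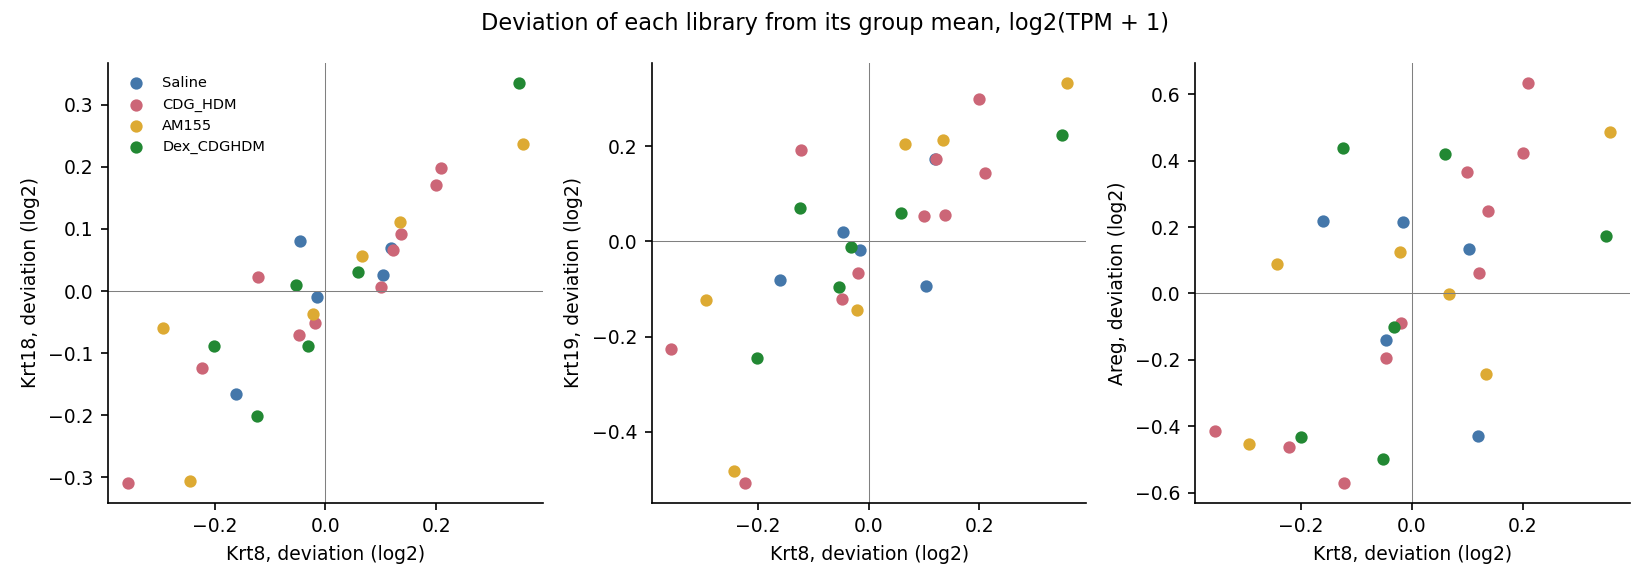
Deviation of each library (points, coloured by group) from its group mean on the log2(TPM + 1) scale, for Krt8 (x axis) against Krt18, Krt19 and Areg (y axes). Krt18 follows Krt8 closely (r = 0.895), Krt19 less so (r = 0.775) and Areg with the widest scatter (r = 0.575).

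Among 16949 other genes, the ones that deviated most like each member over the 27 libraries were listed as a description. They were Plec (plectin, which links intermediate filaments; r = 0.923) and Vim (the mesenchymal intermediate filament vimentin; r = 0.902) for Krt8. For Krt18 they were Pkp2 (a desmosome protein; r = 0.92) and Cyfip1 (an actin regulator; r = 0.917), and for Krt19 Guk1 (guanylate kinase; r = 0.91) and Cystm1 (r = 0.901). For Sfn they were Zfp335 (r = 0.922) and Dhx16 (an RNA helicase; r = 0.917), for Areg Coq10b (r = 0.837) and Sema4f (r = 0.836), and for Cldn4 Zfp964 (r = 0.707) and Azi2 (r = 0.693). For Trp63 they were the olfactory receptor genes Olfr183 (r = 0.82) and Olfr554 (r = 0.815), at means of 1.58 and 2.24 TPM. These values share each library's scale too.

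The other genes of the same programmes were read from lists in CDG_HDM minus Saline. In that comparison 22.8% of all genes were called lower and 9.35% higher, the shares to set beside each list count below. Of 12 other basal cell genes 9 were tested; 5 fell and 1 rose, with a median of -0.54. Perp, a desmosome protein and p63 target, changed by -0.93 ± 0.123 (adjusted p = 8.67e-07 by limma), Dapl1 by -0.87 ± 0.213 (adjusted p = 0.00205) and Col17a1, the hemidesmosome collagen, by -0.68 ± 0.0925 (adjusted p = 1.4e-06). These counts were the same under the 3 other scalings. Krt14, the type I partner of Krt5, was below 1 TPM in all 27 libraries, as was Dlk2.

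The transitional state of injured alveoli was read from 16 further genes, all tested, of which 3 rose and 5 fell, with a median of -0.08. Lgals3, the lectin galectin-3, also abundant in macrophages, rose by 0.74 ± 0.148 (adjusted p = 0.000258). Tm4sf1 (-0.78 ± 0.141, adjusted p = 8.2e-05) and Cdkn2b, a cell cycle inhibitor (-0.70 ± 0.107, adjusted p = 7.42e-06), fell. The split was 5 higher and 2 lower with the common sum, 5 and 3 with median-of-ratios scaling and 5 and 4 with quantile normalization. Relative to the median of all genes on the same scale, the list median was 0.02, and 0.04, 0.03 and 0.02 under these scalings. Common-sum and median-of-ratios scaling move a list and all genes nearly alike, so this closeness is no test of scale. Krt8, Krt18, Krt19 and Sfn were negative in the first comparison under all 4 scalings.

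The EGF family, to which Areg belongs, had 14 of 16 genes tested, with 5 lower and 1 higher and a median of -0.25 (3 lower and 3 higher with the common sum). Nrg1, the neuregulin ligand, changed by -0.70 ± 0.143 (adjusted p = 0.000308), Hbegf, another EGF receptor ligand, by -0.62 ± 0.104 (adjusted p = 3.1e-05), and the receptor gene Erbb2 by -0.41 ± 0.0957 (adjusted p = 0.00116). Areg is also made by immune cells, and of 13 tested genes that mark such sources 2 rose and 4 fell (2 and 2 under each other scaling). Ctla4, an inhibitory receptor of T cells, rose by 1.63 ± 0.131 (adjusted p = 1.07e-10), while the mast cell protease gene Cpa3 (-0.84 ± 0.152, adjusted p = 8.32e-05) and Il1rl1, the IL-33 receptor (-0.55 ± 0.129, adjusted p = 0.00119), fell. Other genes of these cells, named after their values were seen, did not pass, among them Foxp3, the transcription factor of regulatory T cells (-0.0043, adjusted p = 0.978), Il2ra (0.02, adjusted p = 0.898) and the mast cell receptor subunit Ms4a2 (-0.07, adjusted p = 0.678). The part of these cells in the Areg values was not tested.

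Genes of mesothelium and of alveolar type 1 cells, both of which carry simple keratins, fell in the same comparison. Of 9 mesothelium genes 8 fell, with a median of -0.86, led by Upk3b (-1.32 ± 0.181, adjusted p = 1.5e-06), Nkain4 (-0.97 ± 0.123, adjusted p = 4.09e-07) and Upk1b (-0.93 ± 0.157, adjusted p = 3.13e-05). Their summed level ran from 210 to 267 TPM in Saline and from 97.5 to 159 TPM in CDG_HDM. Of 8 alveolar type 1 genes 7 fell, led by Hopx (-0.82 ± 0.14, adjusted p = 3.72e-05), Akap5 (-0.81 ± 0.127, adjusted p = 1.07e-05) and Emp2 (-0.71 ± 0.145, adjusted p = 0.000303), and their sum ran from 2953 to 3714 TPM in Saline and from 1716 to 2893 TPM in CDG_HDM. None of these genes was at 0, and the part of these cells in the keratin values was not tested.

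Genes of airway cells fell as well. Of 10 club and secretory genes 8 fell (7 under each other scaling), led by the secreted antimicrobial proteins Bpifa1 (-4.39 ± 0.704, adjusted p = 1.6e-05) and Bpifb1 (-1.48 ± 0.426, adjusted p = 0.00775) and the club cell cytochrome Cyp2f2 (-1.19 ± 0.173, adjusted p = 3.63e-06). Of 8 ciliated genes 6 fell, led by Tppp3 (-1.14 ± 0.131, adjusted p = 7.38e-08). The 9 alveolar type 2 genes, whose sum ran from 16888 to 29898 TPM over the 27 libraries, did not follow. Of these 3 rose and 0 fell (7 rose with the common sum and 5 under each of the other scalings), and Sftpd, surfactant protein D, rose by 0.81 ± 0.141 (adjusted p = 4.45e-05). Of the 14 general epithelium genes 4 fell and 1 rose, with a median of -0.17 (2 fell and 3 rose with the common sum), among them the adherens junction cadherin Cdh1 (-0.43 ± 0.0966, adjusted p = 0.000834) and the transcription factor Ehf (0.36 ± 0.1, adjusted p = 0.0057).

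**Figure D5:**
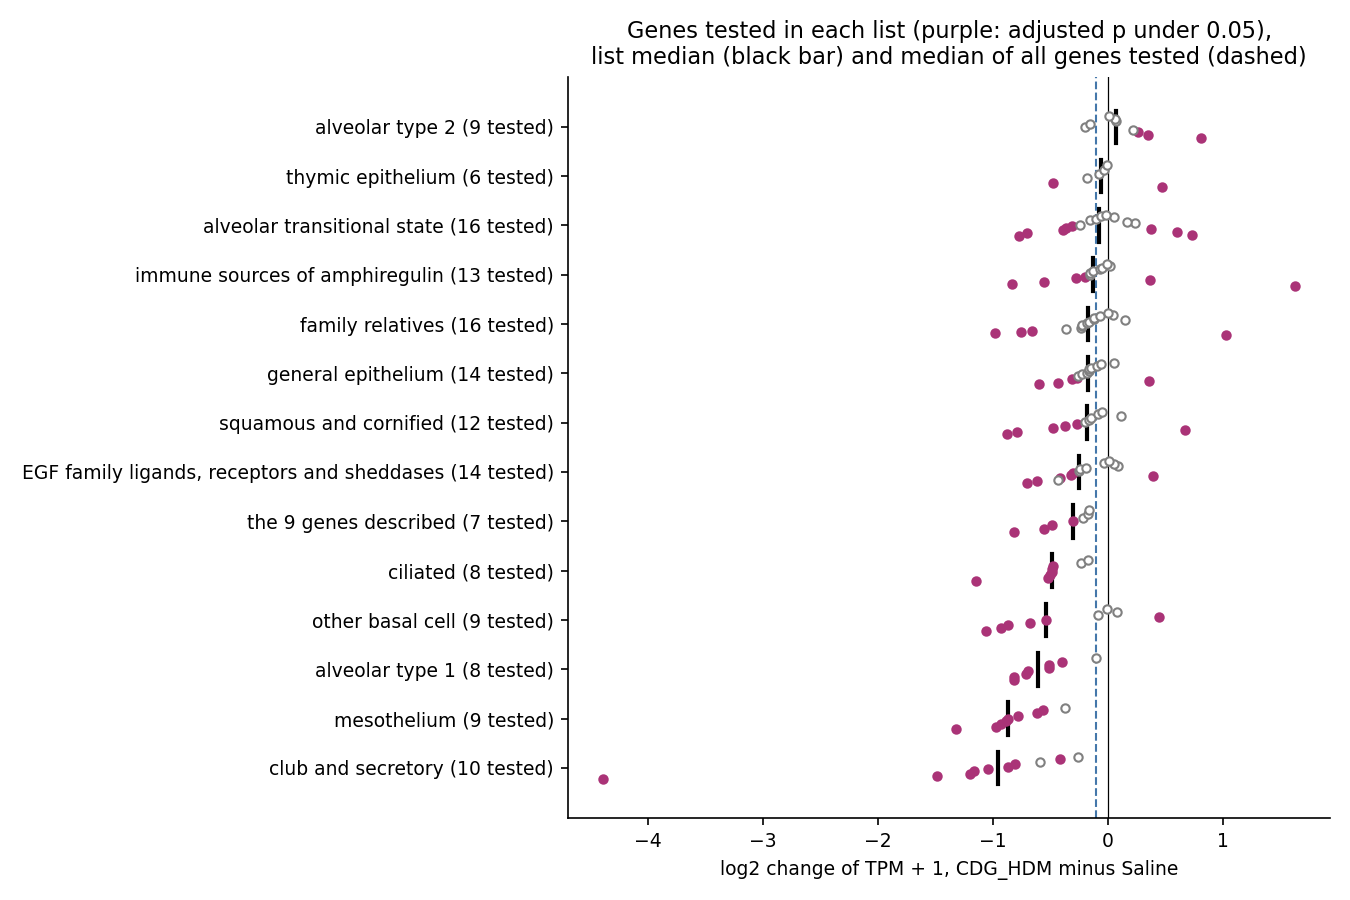
Log2 change of TPM + 1 in CDG_HDM minus Saline (x axis) of the tested genes of each list (y axis; points, purple where adjusted p is under 0.05), with the list median as a black bar and the median of all genes (-0.10) dashed. The mesothelium, alveolar type 1, club and ciliated lists lie to the left of 0 together with the members, and the median of the alveolar type 2 list is 0.07.

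Against CDG_HDM, no gene of any of these lists was called in Dex_CDGHDM or in AM155, beside 0.00573% and 0.103% of all genes. Against Saline, where 17.5% of all genes were lower in Dex_CDGHDM and 32.7% in AM155, the mesothelium list had 9 of 9 genes lower in Dex_CDGHDM and 8 of 9 in AM155, led in both by Upk3b (-1.24 ± 0.2, adjusted p = 2.72e-05, and -1.46 ± 0.2, adjusted p = 2.16e-06). The other basal cell list had 5 of 9 lower in each, led by Perp (-0.94 ± 0.136, adjusted p = 6.1e-06, and -1.01 ± 0.136, adjusted p = 1.6e-06). In AM155 1 gene of that list was higher, the water channel Aqp3 (0.48 ± 0.149, adjusted p = 0.0116). The alveolar type 1 list had 5 of 8 and 7 of 8 lower, and neither it nor the mesothelium list had a gene higher. The EGF family had 4 and 7 of 14 lower, with Nrg1 at -0.76 ± 0.158 (adjusted p = 0.000554) in Dex_CDGHDM and Egfr, the receptor of Areg, at -0.65 ± 0.201 (adjusted p = 0.0108) in AM155. Its 1 higher gene in each was the sheddase Adam17, at 0.30 ± 0.104 (adjusted p = 0.0324) in Dex_CDGHDM and 0.29 ± 0.104 (adjusted p = 0.0253) in AM155.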

How the data were processed

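RNA of 27 left lung lobes was sequenced after ribosome depletion as stranded paired-end libraries, per the labels' protocols, which give 2 different read lengths. The deposited values are TPM made by the authors, per gene symbol, in a table of linear RNA and one of circular RNA. Per the submitters' processing notes, mm10 and CASAVA 1.9 were used; the aligner, the quantifier and the gene models behind the values were not given in the sources used here. TPM keeps no read counts, so depth is unknown and no counting interval can be given.

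Linear values were log2 transformed after adding 1, and a gene was kept where 5 or more libraries reached 1 TPM, which left 17437 genes. One model over the 4 groups was fitted with limma 3.58.1 (R 4.3.3; trend in the prior, two-sided), with Benjamini-Hochberg adjustment over all genes and calls at an adjusted p of 0.05. It was tested on simulated data with independent noise per gene and library, which does not cover the shared scale of a library. The members and lists were chosen with earlier results of these data known. Named are all 9 members and, per list, up to 3 called genes with the largest change in CDG_HDM minus Saline and up to 2 in other contrasts (mean of at least 1 TPM); 1 gene named by this rule is not reported here. Likeness names the 2 highest r per member. Ratios used TPM without a pseudocount. Positions are GENCODE's for GRCm38; promoters are RefSeq's (GRCm38.p6). Outlying libraries were sought in 36 groups of member values. Alternatives covered the pseudocount, filter, scaling, groups fitted, prior, replicate number and each library left out.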

Additional observations from a re-analysis of the deposited data

Results flagged for a closer look

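Krt5 in AM155 2 was 2.60 TPM, against 0.763 TPM in the next library of that group, and its distance from the others flagged it. The same library had the highest level of all 27 for 3 of the 12 other basal cell genes, Krt15 (4.25 TPM), Krt17 (1.25 TPM) and Aqp3 (9.30 TPM). It ranked 2 of 27 for Ngfr and Dlk2, 6 for Dapl1 and Itgb4, and 10 for Col17a1. Its rank was 15 for Krt14 (0.213 TPM) and Perp, and 16 for Snai2 and Lamb3. Sprr1a in Dex_CDGHDM 3 was 0.0323 TPM, against 0.311 TPM in the next library, flagged for the same distance at the low end. These were 2 of 36 groups checked, and chance flags about 1 in 20.

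Circular RNA under the symbol Krt19 was 6.80 TPM in AM155 2 and listed at 0 in the other 26 libraries, the Saline libraries included, a signal outside the linear measurement. Krt19 was the only member with a row in the circular table.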

How the results depend on the processing

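In the 3 comparisons with Saline, Krt8 and Krt19 stayed lower and called under all alternatives, and Krt18 did so except in Dex_CDGHDM minus Saline. There 2 members were called after rescaling to a common sum and 2 with the replicate block, which lost Krt18 (adjusted p = 0.111) and Sfn (0.0881). In CDG_HDM minus Saline the block gave 3 calls, without Sfn (log2 change -0.21, adjusted p = 0.232), and put Cldn4 at -0.49 (adjusted p = 0.0772), against -0.32 to -0.12 with 1 library left out. The labels do not say whether replicate numbers pair mice. Of 20 same-numbered pairs, 2 had a correlation over 0.1, in a range from -0.24 to 0.27, and 1 of 20 libraries was closest to its own number. Weak correlations over all genes cannot show that no pairing exists. With 1 library left out, 3 to 4 members were called in CDG_HDM minus Saline and in Dex_CDGHDM minus Saline, 4 in AM155 minus Saline, and 0 in the 3 other comparisons, which gave 0 under all other settings too. With no filter and AM155 2 left out, Krt5 passed in all 3 comparisons with Saline, at -0.63 (adjusted p = 0.000586) in AM155 minus Saline against -0.39 (0.122) with it. That setting was chosen after seeing the data. Leaving out the library with the highest Krt5 could only lower the AM155 value. Correlated pairs numbered 2 with the common sum, 3 with median-of-ratios scaling and 3 to 7 with 1 library left out.

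Changes of sign occurred only among values that did not pass. In AM155 minus CDG_HDM, log2 changes of Krt8, Krt18, Krt19, Cldn4 and Areg were 0.084, 0.078, 0.070, 0.070 and 0.070 with the common sum, 0.051, 0.045, 0.036, 0.041 and 0.043 with median-of-ratios scaling, and 0.078, 0.074, 0.067, 0.027 and 0.020 with quantile normalization. Without Saline 4 and AM155 6 the 3 keratins were 0.016, 0.022 and 0.049; with the replicate block Cldn4 was 0.093 and Areg 0.012; with no filter and without AM155 2 Trp63 was -0.014 and Areg 0.021. Trp63 in Dex_CDGHDM minus AM155 was -0.037, -0.035 and -0.015 under these scalings and -0.029 without both libraries. Against Saline, Trp63 was 0.029 in Dex_CDGHDM and 0.066 in AM155 with the common sum and 0.011 in AM155 with median-of-ratios scaling, Areg was 0.027 in AM155 with the common sum, and Cldn4 was -0.10 in Dex_CDGHDM with the block. Sfn in Dex_CDGHDM minus CDG_HDM was 0.0091 with the common sum. With 1 library left out, AM155 minus CDG_HDM ran from -0.10 to 0.026 for Krt8, -0.086 to 0.022 for Krt18, -0.11 to 0.049 for Krt19, -0.017 to 0.070 for Trp63, -0.087 to 0.058 for Cldn4 and -0.12 to 0.063 for Areg, Dex_CDGHDM minus CDG_HDM from -0.074 to 0.0021 for Sfn, Dex_CDGHDM minus AM155 from -0.029 to 0.055 for Trp63, and Dex_CDGHDM minus Saline from -0.031 to 0.24 for Cldn4. The cause of these shifts was not tested.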

Other observations

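Squamous and cornified genes, the programme to which Sprr1a belongs, were mostly too low to test: 12 of 26 passed the filter, 5 of them fell and 1 rose in CDG_HDM minus Saline. Envoplakin (Evpl, -0.87 ± 0.0934, adjusted p = 2.24e-08 by limma) and periplakin (Ppl, -0.79 ± 0.145, adjusted p = 0.000103), which tie the cornified envelope to keratin filaments, fell, and the transglutaminase gene Tgm1 rose (0.67 ± 0.102, adjusted p = 7.24e-06). Among 16 relatives of the members by family, 1 rose, 3 fell and 12 were not called (4 rose and 3 fell with the common sum). Of all genes, 9.35% were called higher and 22.8% lower. The 3 relatives named by largest change were claudins and did not share a direction. Cldn1 changed by 1.03 ± 0.11 (adjusted p = 2.33e-08 by limma), the endothelial Cldn5 by -0.98 ± 0.168 (adjusted p = 4.02e-05) and Cldn10 by -0.75 ± 0.105 (adjusted p = 1.98e-06).

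Thymic epithelium, which also carries Krt5, Krt8 and Trp63, was read from a list of its own. Its regulators Foxn1 and Aire were below 1 TPM in all libraries. The other genes of the list were higher on average over the 27 libraries. Psmb11 had a mean of 9.79 TPM, Ccl25 4.46, Tbata 2.56, Fezf2 1.19, Prss16 1.06 and Pax1 0.870 TPM. Of 6 tested genes of that list 1 rose (Prss16, 0.47 ± 0.112, adjusted p = 0.00146) and 1 fell (Tbata, -0.47 ± 0.11, adjusted p = 0.00123).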
